A study of Mus musculus with 16 samples.

Results

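The response of wild-type (WT) common dendritic progenitors (CDPs) to a γ-secretase inhibitor (GSI) was examined on 4 of the 16 arrays of the series, 2 with GSI and 2 with vehicle, chosen by their labels alone. CDPs are bone marrow cells that give rise to conventional and plasmacytoid dendritic cells (cDCs and pDCs). WT CDPs carrying CD45.2 were cultured for 24 h with unfractionated CD45.1+ bone marrow cells and conditioned medium from a Flt3L-producing line, in the presence of 5 µM GSI (Compound E) or of the solvent DMSO, and the CD45.2+ cells were then re-sorted. WT monocyte-dendritic progenitors (MDPs), an earlier stage, and MDPs and CDPs from IkL/L mice, which carry a hypomorphic allele of the transcription factor Ikaros, were treated in the same way, with 2 arrays in each of the 8 groups. The study used mice of 6 to 9 weeks and gives 2 mice per condition. Whether 2 arrays of equal replicate number come from 1 mouse is not stated. MDP and CDP name the cells that entered culture, and the stage of the cells recovered after 24 h was not measured separately.

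γ-Secretase is a membrane protease of 4 subunits that cuts the transmembrane stump of many surface proteins after their outer part has been shed. Its best-known substrates are the Notch receptors, whose intracellular domain is released by this cut, moves to the nucleus and binds RBPJ to switch on genes such as Hes1. Other substrates include cadherins and the receptor tyrosine kinase Axl, and an inhibitor of the enzyme is thus not specific to Notch. Notch signals have been reported to promote DC development in culture. In the study, deletion of Rbpj alone did not raise pDC output from marrow cells with WT Ikaros. Signals from Flt3, the receptor for Flt3L, sustain the progenitors.

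All levels below are log2 RMA signals, and a difference of 1 is a 2-fold change. A value is given for replicate 1 before replicate 2, and the gene was scored in 1 limma fit of the 8 groups over 19938 genes, called at an adjusted p under 0.05. Surface markers that CDPs carry were read on the 4 arrays. MDPs share Flt3 and Csf1r, and the re-sort itself used CD45, so these genes cannot separate CDPs from MDPs. Ptprc, which encodes CD45, read 10.66 and 9.98 with vehicle and 10.45 and 10.09 with GSI. Flt3 read 8.16 and 8.56 with vehicle and 7.71 and 9.13 with GSI. Csf1r, the receptor for M-CSF, read 10.77 and 10.12 with vehicle and 10.52 and 9.99 with GSI. All 3 genes read above the array medians of the series (4.52 to 4.65) on all 4 arrays. Kit, which CDPs carry at a low level, read 5.71 and 6.64 with vehicle and 4.85 and 5.92 with GSI.

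The 4 arrays were not alike in their myeloid content. Genes of azurophil granules, the first granules made by neutrophil precursors, stood out on vehicle array 2. Mpo (myeloperoxidase) read 7.85 and 11.67 with vehicle and 8.17 and 7.28 with GSI, and Elane (neutrophil elastase) read 6.14 and 9.60 with vehicle and 6.38 and 5.20 with GSI. Several macrophage genes followed the replicate number. Adgre1, which encodes F4/80, read 9.90 and 7.55 with vehicle and 9.62 and 7.0 with GSI. Ccr2 of the same list did not, at 11.52 and 11.58 with vehicle and 11.77 and 11.41 with GSI. Summed on a linear scale, the 25 neutrophil genes reached 14943 and 21496 with vehicle and 17589 and 8576 with GSI, and the 23 monocyte and macrophage genes reached 34579 and 23515 with vehicle and 32532 and 17157 with GSI. In both sums GSI array 2 was the lowest of the 4. In a bulk sample fewer cells of a type and less RNA per cell cannot be told apart. Across all genes the difference within replicate number 1 and that within number 2 had a correlation of 0.25, which is across genes and a description only.

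**Figure D1:**
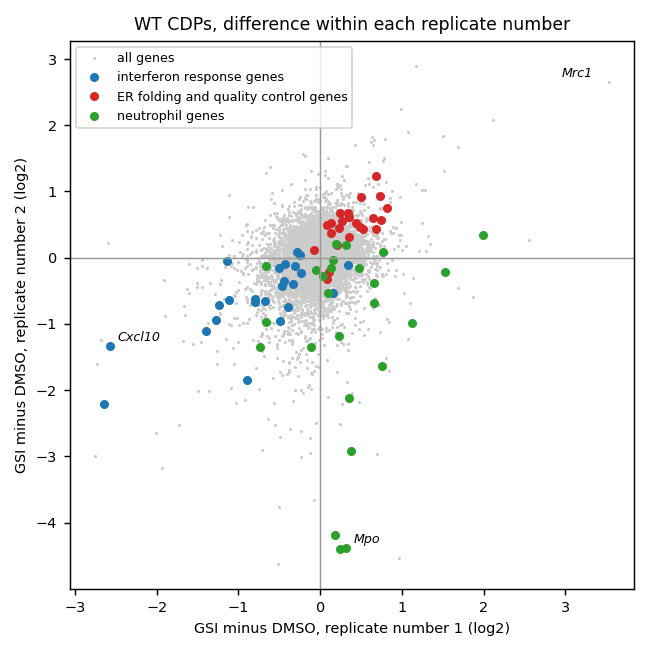
GSI minus DMSO in log2 units within replicate number 1 (x axis) and within number 2 (y axis), with 1 gray point per gene and the members of 3 gene lists in color. Mrc1 lies far out in both, 20 of 24 interferon response genes are below 0 in both, and Mpo is at 0.32 in number 1 and at -4.39 in number 2, the number of the vehicle array with high granule genes.

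Of the 19938 genes, 2 passed the threshold, and both rose with GSI (0.01% of genes tested). None fell (0.0%). Without the adjustment, 363 genes were higher and 455 lower at p under 0.05 in limma (1.82% and 2.28%). Mrc1 had the largest rise. It encodes CD206, the mannose receptor, which takes up glycoproteins in macrophages and some DCs. Its signal was 4.60 and 4.91 with vehicle and 8.13 and 7.55 with GSI, so that a gene near the lower end of the scale reached a middle level on both treated arrays. The rise was 8.51-fold (log2 3.09, SE 0.35, limma adjusted p = 0.0445, n = 2 arrays per group). Hfe encodes an MHC class I-like protein that binds the transferrin receptor and takes part in the control of iron uptake. It read 5.82 and 5.91 with vehicle and 7.10 and 6.93 with GSI, a 2.22-fold rise (log2 1.15, SE 0.13, limma adjusted p = 0.0445). For both genes the gap between the groups was wider than the spread within either group.

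These calls lay close to the threshold. With 1 of the 16 arrays left out, the adjusted p of Mrc1 ran from 0.0244 to 0.304 and that of Hfe from 0.067 to 0.304, and Mrc1 was called in 2 (without either vehicle array of IkL/L MDPs) and Hfe in 0 of 16 such fits. Their log2 fold changes stayed between 2.80 and 3.38 for Mrc1 and between 1.06 and 1.24 for Hfe, also without vehicle array 2 or GSI array 2.

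By size alone, 408 genes differed by over 1.5-fold between the group means, 102 higher and 306 lower with GSI (0.512% and 1.53% of genes). The number depended on the arrays. It was 494 within replicate number 1 and 902 within number 2, and 139 genes passed within both in the same direction, 40 higher and 99 lower. Arrays did not overlap between GSI and vehicle for 3084 genes that were higher (15.5%) and for 2735 that were lower (13.7%). The genes below were not called unless stated, and their values are given as measured.

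Among the genes with higher signal on both GSI arrays, several had a several-fold difference of means. Slc30a4, a zinc transporter, read 5.91 and 6.42 with vehicle and 8.02 and 8.51 with GSI, 4.28-fold apart (log2 2.10, SE 0.42, adjusted p = 0.643). Cdh1, which encodes E-cadherin, an adhesion molecule and itself a γ-secretase substrate, read 5.68 and 5.44 with vehicle and 6.85 and 8.34 with GSI. Its treated arrays were the most spread of this group, and both were above both vehicle arrays. Casp6, an effector caspase, read 6.16 and 5.83 with vehicle and 7.66 and 7.67 with GSI (log2 1.67, SE 0.27, adjusted p = 0.415). Eps8, an actin regulator downstream of receptor tyrosine kinases, read 5.66 and 6.16 with vehicle and 7.34 and 7.82 with GSI. Within replicate numbers the difference of Eps8 was 1.68 and 1.67, the same on both pairs to the first decimal. The remaining genes of this group had smaller differences. They were Tubb3 (a β-tubulin, log2 1.29), Ptger3 (a prostaglandin E2 receptor, 1.19), Lifr (the receptor for leukemia inhibitory factor, 1.14), Arap2 (1.14), Sft2d2 (0.98), Igfbp6 (an IGF-binding protein, 0.83), Ppp2r3a (a phosphatase subunit, 0.74), Dnajc3 (a co-chaperone of the endoplasmic reticulum, 0.66) and Lpxn (leupaxin, 0.59).

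Among the genes with lower signal on both GSI arrays, the RNA-binding protein gene Rbpms had the lowest adjusted p. It read 7.92 and 8.01 with vehicle and 6.57 and 5.99 with GSI, 3.22-fold lower (log2 -1.69, SE 0.26, adjusted p = 0.371). Hpgd, which degrades prostaglandins, read 9.65 and 8.53 with vehicle and 6.92 and 6.93 with GSI. Met, the receptor for hepatocyte growth factor, read 8.72 and 8.68 with vehicle and 7.73 and 7.66 with GSI, a difference of -1.0 with little spread in either group. Cx3cr1, the fractalkine receptor and a marker of MDPs and their monocyte and DC progeny, read 9.81 and 9.07 with vehicle and 7.91 and 8.19 with GSI, 2.62-fold lower. Anxa3, an annexin, read 7.90 and 8.29 with vehicle and 7.15 and 6.31 with GSI. The others were the chemokine gene Cxcl10 (-1.96), the cytokine gene Il15 (-1.01), Vegfa (-0.82), the junctional adhesion molecule F11r (-0.81), Zfp943 (-0.80), Stxbp6 (-0.76), the interferon-induced GTPase Irgm1 (-0.73), Marcksl1 (-0.68), Gab3 (-0.61) and ketohexokinase, Khk (-0.60).

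**Figure D2:**
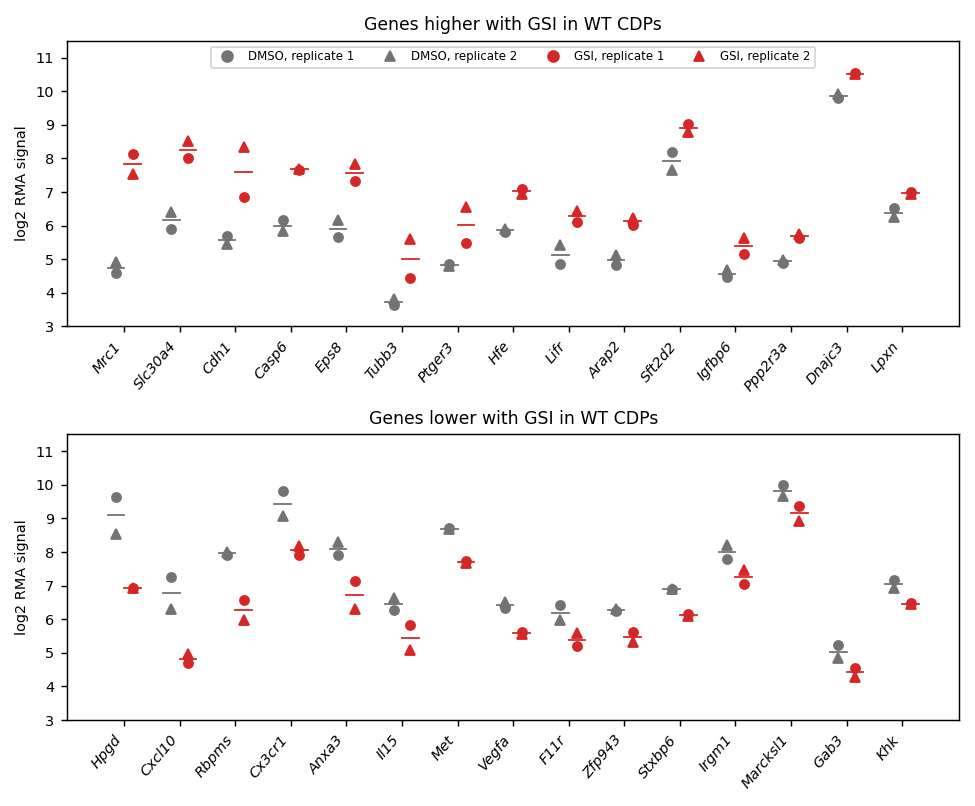
log2 RMA signal of the 15 leading genes with higher signal (top) and the 15 with lower signal (bottom) on both GSI arrays in WT CDPs, with 1 point per array (circles replicate 1, triangles replicate 2) and a line at each group mean. Mrc1 and Hfe are the called genes. Mrc1 goes from 4.60 and 4.91 to 8.13 and 7.55.

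Interferon response genes were the list with the lowest median. Many of these genes carry the interferon-stimulated response element (ISRE) in their promoters and encode antiviral proteins. Of 24 measured members, 23 had a lower mean with GSI, and for 18 both GSI arrays were below both vehicle arrays, beside 13.7% of all genes. No member was higher on both GSI arrays. The median difference was -0.58, beside 0.01 over all genes. None passed the threshold after adjustment, and 10 were lower at an unadjusted p under 0.05 in limma. Ifit3, which restrains viral translation together with Ifit1, read 7.44 and 7.19 with vehicle and 4.80 and 4.98 with GSI, 5.37-fold lower (log2 -2.43, SE 0.65). Cxcl10, a chemokine that draws T cells, read 7.26 and 6.31 with vehicle and 4.69 and 4.97 with GSI. Xaf1, a pro-apoptotic protein induced by interferon, read 7.70 and 7.69 with vehicle and 6.90 and 7.02 with GSI. In each of these genes the groups were clearly apart. Sensors of viral RNA were lower by less, with differences of -0.87 for Ddx58 (RIG-I) and -0.56 for Ifih1 (MDA5). Irf7 differed by -0.60 and Irf9 by -0.45. Usp18, which limits the interferon signal, was the only member with a higher mean (0.12), and its arrays overlapped.

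The median of the list was -0.50 within replicate number 1 and -0.59 within number 2, and ranged from -0.63 to -0.49 with 1 of the 4 arrays left out. It was -0.49 without vehicle array 1, -0.63 without vehicle array 2, -0.62 without GSI array 1 and -0.61 without GSI array 2. Beside it, 23 pDC genes had a median of -0.03, which ran from -0.19 to 0.14 with 1 array left out. Of these pDC genes 2 were higher and 2 lower on both GSI arrays, beside 15.5% and 13.7% of all genes. The part of the cell makeup in the lower interferon genes was not tested.

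ISRE letters are shown here because they are the sequence shared by genes of this list. RefSeq promoter windows, from 250 bases before to 50 after a transcription start, were found for 19 of the 24 members. The letters TTTCNNTTTC, searched on both strands, occurred in 11 of these 19, beside 3.99% of the 27025 genes with a window. Over all 607 measured genes with these letters the median difference was -0.01, with 14.3% higher and 15.8% lower on both GSI arrays, near the shares of all genes. The 250 bases before the start are printed 5′ to 3′ for Ifit3 (GRCm38.p6, chr19:34583279-34583528, plus strand) and Cxcl10 (GRCm38.p6, chr5:92348890-92349139, minus strand), with each match in capitals. A match is a description of the letters and not a shown binding site.
Ifit3: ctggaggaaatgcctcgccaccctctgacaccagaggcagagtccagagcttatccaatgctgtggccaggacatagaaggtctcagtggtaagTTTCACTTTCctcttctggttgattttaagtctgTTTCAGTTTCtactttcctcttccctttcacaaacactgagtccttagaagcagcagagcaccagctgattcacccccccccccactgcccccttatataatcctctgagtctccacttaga
Cxcl10: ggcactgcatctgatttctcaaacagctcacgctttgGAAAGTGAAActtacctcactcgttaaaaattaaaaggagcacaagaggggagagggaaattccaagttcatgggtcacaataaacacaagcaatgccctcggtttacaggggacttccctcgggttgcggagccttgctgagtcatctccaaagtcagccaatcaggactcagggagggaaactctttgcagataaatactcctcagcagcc

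Genes of the secretory pathway lay on the other side. Proteins bound for the surface or for secretion enter the endoplasmic reticulum (ER) through the translocon, are glycosylated, folded by chaperones and carried onward in COPII vesicles. The 4 lists of these genes were written after the values had been seen, and their counts describe what was noticed. Of 23 genes for ER folding and quality control, 20 were higher on both GSI arrays and 0 were lower (15.5% and 13.7% of all genes), with a median difference of 0.48 and 11 members at an unadjusted p under 0.05. Of 16 translocon and signal peptidase genes, 11 were higher and 0 lower, with a median of 0.25. Of 21 oligosaccharyltransferase and N-glycosylation genes, 9 were higher and 2 lower, with a median of 0.24. Of 20 genes for COPI and COPII coats, 12 were higher and 1 lower, with a median of 0.19. No member of any of these lists passed the threshold after adjustment.

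The differences were small and tight. Selenos, which helps to export misfolded proteins from the ER, read 8.88 and 8.91 with vehicle and 9.41 and 9.35 with GSI (log2 0.48, SE 0.09, adjusted p = 0.448). P4hb, a protein disulfide isomerase, read 10.21 and 10.13 with vehicle and 10.70 and 10.60 with GSI. Dnajc3 read 9.81 and 9.93 with vehicle and 10.55 and 10.50 with GSI. The 3 genes had treated arrays within about 0.1 of each other and well above both vehicle arrays. Hspa5 (BiP), the main chaperone of the ER, read 10.67 and 10.74 with vehicle and 11.01 and 11.41 with GSI. The member with the greatest difference, Hyou1, also a chaperone, read 7.28 and 7.55 with vehicle and 7.96 and 8.79 with GSI, 1.94-fold apart. Stt3b, a catalytic subunit of oligosaccharyltransferase, read 8.31 and 8.42 with vehicle and 8.81 and 8.97 with GSI. Ddost, another subunit, differed by 0.46. Spcs3 of the signal peptidase differed by 0.36, Ssr3 of the translocon-associated complex by 0.29, and the coat genes Cope and Sec24c by 0.58 and 0.27. The median of the folding list was 0.47 without vehicle array 2 and 0.32 without GSI array 2.

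Unfolded protein and stress response genes include the signaling arm of ER stress, and the list also holds Hspa5 of the folding list. Of 21 measured members, 7 were higher on both GSI arrays and 0 lower, beside 15.5% and 13.7% of all genes. The median was 0.07, and 0.16 to 0.21 with any 1 of the 4 arrays left out. Chac1, a glutathione-degrading enzyme induced by ATF4, read 4.39 and 4.49 with vehicle and 4.90 and 5.14 with GSI (log2 0.58, SE 0.11, adjusted p = 0.468).

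ER folding genes often carry the ER stress response element (ERSE), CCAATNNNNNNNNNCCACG, through which ATF6, XBP1 and NF-Y act. These letters, on either strand, occurred in 9 of the 20 folding genes with a promoter window and in 0.137% of all genes with one (37 of 27025). Membership of this set depends on sequence, but the element was taken up for its link to folding genes. The folding list was written after its values had been seen, so the counts describe and do not test. Of the 21 measured genes with the letters, 13 were higher and 1 lower on both GSI arrays, or 61.9% beside 15.5% of all genes, with a median of 0.18. The set holds 9 genes of the folding list, all 9 of them higher. Of the other 12 genes, 4 were higher (Alg12, Ptgdr2, Acnat2 and Tdrd9, by 0.16, 0.20, 0.18 and 0.07) and 1 was lower, Pan2 at -0.15, and their median was 0.02. Promoters of Dnajc3 (GRCm38.p6, chr14:118937682-118937931, plus strand) and Hspa5 (GRCm38.p6, chr2:34771840-34772089, plus strand) are printed to show where the element lies, 105 and 65 bases before the start, in capitals.
Dnajc3: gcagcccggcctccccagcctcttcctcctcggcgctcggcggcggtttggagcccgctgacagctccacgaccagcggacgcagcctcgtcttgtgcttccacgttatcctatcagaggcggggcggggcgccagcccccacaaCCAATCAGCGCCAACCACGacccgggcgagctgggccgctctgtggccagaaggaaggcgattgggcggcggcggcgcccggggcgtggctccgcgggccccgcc
Hspa5: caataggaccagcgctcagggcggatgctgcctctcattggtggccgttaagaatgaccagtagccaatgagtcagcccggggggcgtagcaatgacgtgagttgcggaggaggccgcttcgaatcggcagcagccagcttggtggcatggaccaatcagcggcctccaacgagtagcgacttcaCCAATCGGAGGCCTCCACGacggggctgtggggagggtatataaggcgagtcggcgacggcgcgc

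**Figure D3:**
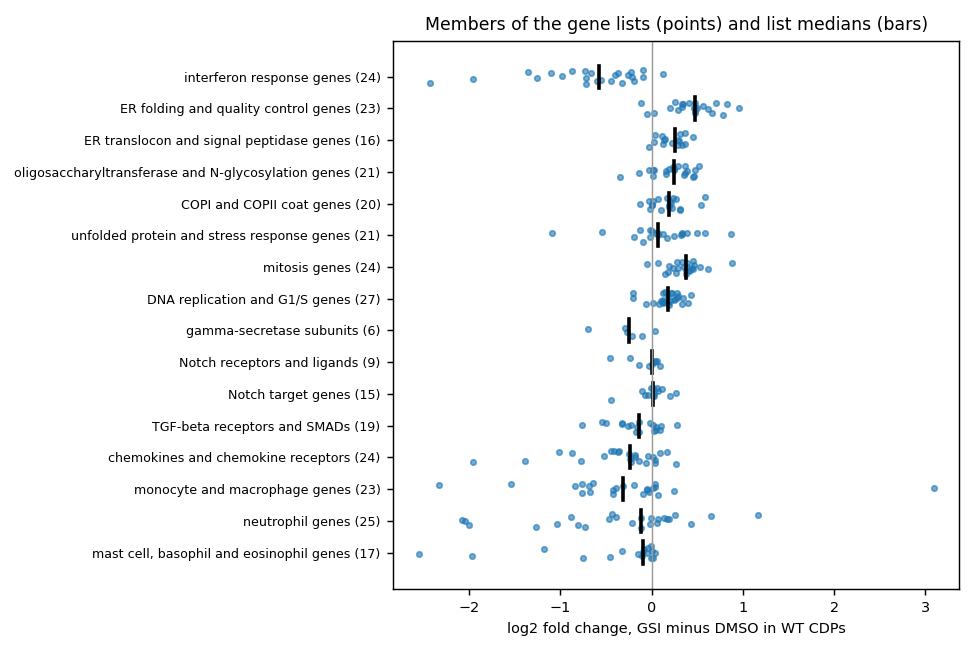
log2 fold change (GSI minus DMSO in WT CDPs) of each measured member of 16 gene lists, with the number of members in parentheses and a bar at each list's median. Interferon response genes center on -0.58 and ER folding genes on 0.48. Notch receptors and ligands together center on 0.00 and Notch target genes on 0.02.

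No gene of γ-secretase or of the Notch pathway was called. Of 6 measured γ-secretase subunit genes, 5 had a lower mean with GSI, 1 was lower on both GSI arrays (13.7% of all genes), and the median was -0.24, with -0.04 without GSI array 2, -0.15 without vehicle array 1 and -0.36 without GSI array 1. Psen2, a catalytic subunit, read 7.14 and 6.46 with vehicle and 6.65 and 5.55 with GSI (log2 -0.70, SE 0.34). Psenen, which activates the complex, read 10.55 and 10.85 with vehicle and 10.46 and 10.50 with GSI. Its arrays did not overlap, but the gap was small. Aph1b differed by -0.27, Aph1c by -0.29, Ncstn (nicastrin) by -0.11 and Aph1a by 0.04, all with overlapping arrays.

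Of the Notch receptors, Notch2 read 9.18 and 8.59 with vehicle and 8.77 and 8.52 with GSI, and Notch1 read 7.68 and 6.83 with vehicle and 7.26 and 6.32 with GSI. Notch3 and Notch4 lay between 4.12 and 5.32 on all 4 arrays. The ligand genes Dll1, Dll3, Dll4, Jag1 and Jag2 lay between 3.68 and 4.70. The 5 ligands differed by -0.14 (Jag1) to 0.09 (Dll3), and only Dll3 was higher on both GSI arrays, as were 15.5% of all genes.

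Of 15 measured Notch target genes, 2 were higher on both GSI arrays (Hes5 at 0.20 and Ptcra at 0.27), 2 were lower (Dtx4 at -0.45 and Hey2 at -0.07), and the others overlapped. The median was 0.02, and over all genes 15.5% were higher and 13.7% lower on both GSI arrays. Hes1, the canonical target, read 4.33 and 4.17 with vehicle and 4.11 and 4.31 with GSI, low on all 4 arrays. Nrarp, a feedback inhibitor of Notch, read 3.80 and 3.86 with vehicle and 3.82 and 3.87 with GSI. Dtx4, a ubiquitin ligase of the Deltex family, had the largest gap of the list, with 6.18 and 6.13 with vehicle and 5.78 and 5.64 with GSI. Dtx4 differed by -0.45 in WT CDPs (SE 0.24), -0.09 in IkL/L CDPs, -0.66 in WT MDPs and -0.3 in IkL/L MDPs. Hes5, at 5.92 and 5.85 with vehicle, went the other way, by 0.20, 0.18, 0.1 and 0.03 in the same order. Hey1 (-0.01), Heyl (0.03), Hes7 (0.07), Dtx1 (0.02), Il2ra (0.06), Gata3 (0.11) and Uaca (0.03) differed by no more than about 0.1. All of these genes were low, at or below 5.15 on all 4 arrays, beside array medians of 4.52 to 4.65 in the series. Whether genes at such levels could show a fall was not tested, and their small differences do not show unchanged Notch signaling. Myc and Ccnd1, which many pathways regulate, followed the replicate number. Myc read 8.80 and 9.96 with vehicle and 8.41 and 10.14 with GSI, and Ccnd1 read 9.30 and 9.96 with vehicle and 8.84 and 10.46 with GSI. The letters TGGGAA, the core bound by RBPJ, occurred in 4 of 9 target genes with a promoter window and in 28.3% of all genes, a short motif that is common by its length. Notch signal processing and cofactor genes (18 measured) had a median of -0.06, with 1 lower on both GSI arrays, and Furin and Kat2b differed by -0.43 and -0.30 with overlapping arrays. Rbpj differed by 0.13.

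Other γ-secretase substrates were 32 genes with a median of -0.09. Of these, 4 were higher and 5 lower on both GSI arrays, beside 15.5% and 13.7% of all genes. Axl, a receptor that clears apoptotic cells, read 7.85 and 6.64 with vehicle and 6.17 and 5.38 with GSI, 2.77-fold lower, with both GSI arrays below both vehicle arrays. The median of these 32 genes ran from -0.25 to 0.05 with 1 array left out.

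TGFβ signaling, which acts in DC development, was measured through 19 receptors, ligands and SMADs. Of these 8 were lower and 2 higher on both GSI arrays, beside 13.7% and 15.5% of all genes, and the median was -0.14. Eng (endoglin), a co-receptor, read 6.16 and 6.68 with vehicle and 5.25 and 6.08 with GSI. Tgfbr3 differed by -0.50, Tgfbr2 by -0.33 and Smad3 by -0.23. Acvrl1 and Tgfb3 were the 2 that were higher. Without vehicle array 1 the median of the list was -0.03. TGFβ target genes (18 measured) had a median of -0.11, from -0.31 to 0.04 with 1 array left out.

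DC genes showed single differences and no common direction. Irf4, the transcription factor of the cDC2 lineage, read 6.48 and 5.73 with vehicle and 7.47 and 7.98 with GSI, 3.07-fold higher (log2 1.62, SE 0.60, adjusted p = 0.999). Havcr2 (TIM-3), an inhibitory receptor of cDCs, read 5.08 and 4.57 with vehicle and 6.05 and 5.48 with GSI. Both genes had higher signal on both GSI arrays. Clec9a of the same list went the other way, with 4.68 and 6.10 with vehicle and 3.62 and 4.49 with GSI, 2.52-fold lower. Over 32 cDC genes the median was 0.04, with 7 higher and 4 lower, beside 15.5% and 13.7% of all genes. Of the pDC list, Cd209d read 6.57 and 6.32 with vehicle and 7.21 and 8.02 with GSI, and Tlr9, a sensor of DNA in pDCs, differed by -0.38. The regulators of the pDC lineage Tcf4 (0.43), Bcl11a (0.83), Irf8 (-0.49) and Ikzf1 (0.10) had overlapping arrays, as did the DC progenitor gene Spi1 (-0.07). The pDC surface genes Siglech (-0.02), Bst2 (-0.09), Klra17 (-0.66) and Ccr9 (0.02) overlapped as well. The DC regulators Batf3 (0.26) and Nfil3 (0.36) and the granulocyte regulator Gfi1 (0.03) overlapped too. So did Rel (0.10), Relb (-0.12), Nfkb2 (-0.14), Nfkbie (-0.15) and Irf1 (-0.23), which the study names among TGFβ target genes. Id2 differed by -0.29 with arrays just apart. MHC class II genes (9 measured) had a median of 0.13, with a wide range when 1 array was left out (-0.32 to 0.52). Ciita, their master regulator, read 6.51 and 6.74 with vehicle and 6.80 and 7.91 with GSI, and Cd74 differed by 0.45 with overlap. Mature DC genes (29) had a median of 0.04, from -0.17 to 0.09 with 1 array left out.

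DC progenitor genes (28) had a median of -0.14, with 3 lower and 1 higher on both GSI arrays, no larger shares than over all genes (13.7% and 15.5%). The median ran from -0.30 to 0.0 with 1 array left out. Besides Cx3cr1, the lower members were Cd34, a stem and progenitor cell marker, at 9.96 and 10.36 with vehicle and 8.90 and 9.80 with GSI, and Cebpa, a myeloid transcription factor, at 7.73 and 7.49 with vehicle and 7.30 and 7.21 with GSI. Of 24 chemokine and chemokine receptor genes 6 were lower and 1 higher, with a median of -0.24. Cxcl10, Cx3cr1, Ccl22 (-0.87), Cxcr3 (-0.41), Cxcr4 (-0.25) and Pf4 (-0.18) were the lower members. Of 22 cytokine and growth factor receptor genes the median was -0.15 (-0.25 to 0.13 with 1 array left out), with Il4ra at 0.46 and Il17ra at -0.56, both with arrays apart.

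Mitosis genes had higher means in 23 of 24 measured members, with a median of 0.38, and 12 were higher on both GSI arrays, beside 15.5% of all genes. Cenpf, a kinetochore protein, read 5.73 and 6.24 with vehicle and 6.97 and 6.76 with GSI. Bub1b, a checkpoint kinase, read 8.38 and 8.58 with vehicle and 8.82 and 8.80 with GSI. Vehicle array 1 decided the size of this difference. The median was 0.60 within replicate number 1 and 0.16 within number 2, and 0.08 without vehicle array 1. DNA replication genes (27) had a median of 0.18, with arrays that overlapped in all but E2f2, which was lower (-0.21). The median changed sign with the array left out, from -0.19 without vehicle array 1 or GSI array 2 to 0.55 without vehicle array 2 and 0.62 without GSI array 1. Of the 27 genes, 22 were higher with GSI in both replicate numbers, among them Ung (0.40) and E2f1 (0.19).

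Markers of other cells that a sort could hold were read in the same way. Mast cell, basophil and eosinophil genes were lower on both GSI arrays in 7 of 17 measured members and higher in 1, beside 13.7% and 15.5% of all genes, and their summed linear signal was 1104 and 627 with vehicle and 408 and 370 with GSI. Prg2, an eosinophil granule protein, read 7.96 and 7.82 with vehicle and 6.03 and 4.66 with GSI, and Mcpt8, a basophil protease, read 8.15 and 6.29 with vehicle and 5.46 and 5.04 with GSI. The mast cell genes Cma1, Tpsb2 and Mcpt4 lay at or below 4.21 on all 4 arrays. Cpa3 of the same list was higher, at 5.48 and 4.81 with vehicle and 4.48 and 4.32 with GSI. The eosinophil genes Epx and Ccr3, among the 7 lower members, lay at or below 4.32. The median of the list was -0.10. Of 23 monocyte and macrophage genes 2 were lower and 1 (Mrc1) higher, with a median of -0.31 that was 0.23 without GSI array 2 and -0.94 without GSI array 1. Cd14, an endotoxin co-receptor, read 9.33 and 8.18 with vehicle and 7.32 and 5.52 with GSI. Cd163, a marker of tissue macrophages, read 4.71 and 5.01 with vehicle and 4.75 and 4.87 with GSI, so that of these macrophage genes Mrc1 alone was called. Of 25 neutrophil genes 2 were lower and 2 higher, with a median of -0.12. Medians were -0.11 over 13 B cell genes, -0.05 over 15 T and NK cell genes and 0.02 over 10 erythroid and megakaryocyte genes, and the summed signal of these 3 lists ran from 288 to 929. The part of these cells in the differences above was not tested.

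The remaining lists were read by their medians. Of 23 NF-kB pathway genes 21 had a lower mean, with a median of -0.21 that was -0.53 within replicate number 1 and 0.05 within number 2, and 0.07 without vehicle array 1 and -0.50 without vehicle array 2. Over 22 lysosome genes the median was -0.12, from -0.34 without vehicle array 2 to 0.20 without vehicle array 1. Medians were -0.09 over 19 cholesterol genes, -0.03 over 18 p53 and apoptosis genes, -0.07 over 21 immediate early genes and 0.04 over 8 aryl hydrocarbon receptor genes. The immediate early gene Ier3 read 8.21 and 7.32 with vehicle and 8.87 and 9.10 with GSI, and the receptor gene Ahr itself read 5.96 and 5.92 with vehicle and 6.36 and 6.64 with GSI. Nr4a1, an immediate early gene of antigen and growth factor signals, differed by -0.78, and Icam1 by -0.39. Sesn1 and Bcl2l1 differed by -0.59 and -0.32, the liver X receptor gene Nr1h3 by -0.67 and the sterol enzyme gene Sc5d by -0.35.

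The effect of GSI in WT CDPs was compared with that in IkL/L CDPs and in WT MDPs, which share no array with it. The difference between the effects in WT and IkL/L CDPs passed the threshold for 0 genes (0.0% of genes tested, lowest adjusted p = 0.244), with 286 at an unadjusted p under 0.05 in limma. The difference between WT CDPs and WT MDPs also passed for 0 genes (0.0%), with 479 at an unadjusted p under 0.05. GSI in IkL/L CDPs alone gave 1 called gene (0.00502%), Cyp1b1, an aryl hydrocarbon receptor target named here after its value was seen. In WT CDPs Cyp1b1 read 3.49 and 3.58 with vehicle and 3.59 and 3.57 with GSI, and the difference of effects was -1.06 (adjusted p = 0.244). Across all genes the log2 fold changes in WT CDPs had a correlation of 0.53 with those in IkL/L CDPs, 0.42 with those in WT MDPs and 0.27 with those in IkL/L MDPs. These are correlations across genes, which are not independent replicates.

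The leading genes were mostly on the same side in the other populations. Of the 15 genes with higher signal, all 15 had a higher mean with GSI in IkL/L CDPs and in WT MDPs and 14 in IkL/L MDPs, beside 64.7%, 66.7% and 58.7% of all genes that were higher in WT CDPs. Arrays did not overlap in that direction for 14 of the 15 in IkL/L CDPs (19.4% of all genes), 10 in WT MDPs (19.0%) and 10 in IkL/L MDPs (18.3%). Of the 15 with lower signal, 14, 14 and 13 had a lower mean there, beside 58.8%, 53% and 53% of all genes that were lower in WT CDPs, with arrays apart for 8 (14.4%), 12 (12.8%) and 11 (14.4%). Slc30a4 differed by 2.10 in WT CDPs, 1.63 in IkL/L CDPs, 1.25 in WT MDPs and 0.85 in IkL/L MDPs, and Rbpms by -1.69, -0.91, -1.42 and -0.94. Hpgd (-2.16, -3.06, -1.58 and -1.46) and Cx3cr1 (-1.39, -1.55, -1.62 and -0.79) were lower in all 4 as well.

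Other genes were uneven between populations. Mrc1 differed by 3.09 in WT CDPs, 1.48 (SE 0.35, adjusted p = 0.523) in IkL/L CDPs, 0.42 in WT MDPs and 0.27 in IkL/L MDPs. The effect in WT CDPs exceeded that in WT MDPs by 2.67 (SE 0.50) and that in IkL/L CDPs by 1.60 (SE 0.50), and neither difference passed the threshold over all genes. Hfe differed by 1.15, 0.79, 0.27 and 0.50 in the same order. Cdh1 (2.03 and 2.90 in CDPs, 0.31 and 0.46 in MDPs) was high with GSI in CDPs of both genotypes, and its difference between WT CDPs and WT MDPs was 1.72 (SE 0.58), not past the threshold. Anxa3 differed by -1.36 in WT CDPs and by -0.18, -0.26 and -0.03 elsewhere. Irf4 was higher in all 4 (1.62, 0.63, 1.16 and 0.54), and Axl lower in all 4 (-1.47, -1.83, -1.59 and -0.80).

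**Figure D4:**
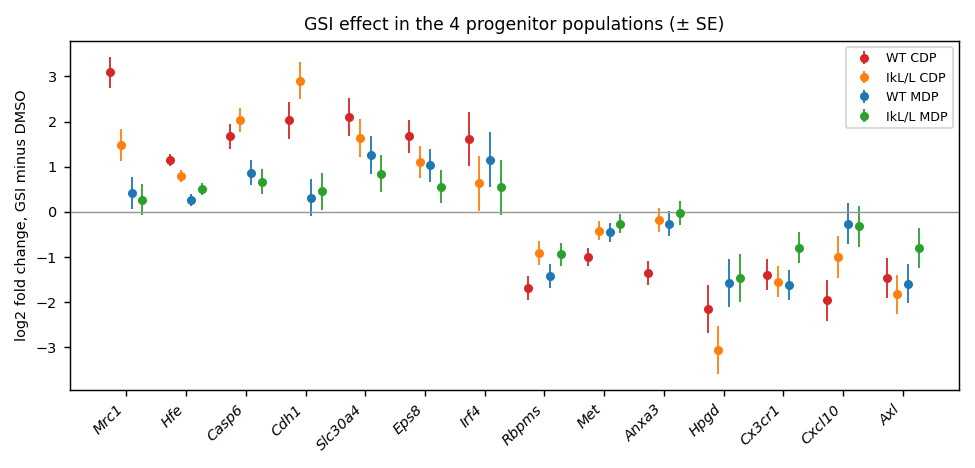
log2 fold change (GSI minus DMSO) of 14 genes in WT CDPs, IkL/L CDPs, WT MDPs and IkL/L MDPs, as points with bars for ± SE from the limma fit of 2 arrays per group. Slc30a4, Rbpms, Hpgd and Cx3cr1 keep their sign in all 4, while Mrc1 is 3.09 in WT CDPs and 0.27 in IkL/L MDPs.

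The lists were set side by side in the same way. ER folding genes had medians of 0.48 in WT CDPs, 0.34 in IkL/L CDPs, 0.30 in WT MDPs and 0.30 in IkL/L MDPs, and 20, 19, 10 and 14 of 23 members were higher on both GSI arrays. Over the 4 secretory lists together (80 genes) the counts were 52, 59, 40 and 54 higher, beside 15.5%, 19.4%, 19.0% and 18.3% of all genes, and 3, 2, 2 and 1 lower. Of the 21 measured genes with ERSE letters, 11 were higher in IkL/L CDPs and 6 in each MDP population, with medians of 0.11, 0.17 and 0.12.

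Interferon response genes had medians of -0.58, -0.31, -0.27 and -0.10 in the same order, and 18, 3, 13 and 6 of 24 members were lower on both GSI arrays, beside 13.7%, 14.4%, 12.8% and 14.4% of all genes. In IkL/L CDPs Ifit3 differed by -1.48 and in WT MDPs by -0.51, and Cxcl10 by -1.0 and -0.26. Mitosis genes had a median of 0.38 in WT CDPs and of -0.21, -0.12 and -0.07 elsewhere. For no member of these lists did the difference between populations pass the threshold. Cholesterol genes had a median of -0.09 in WT CDPs and of 0.20, 0.15 and 0.14 elsewhere. The WT CDP median ran from -0.15 to 0.02 with 1 array left out. In the other populations 10, 6 and 9 of 19 members were higher on both GSI arrays, beside 19.4%, 19.0% and 18.3% of all genes. In WT CDPs 0 were higher, beside 15.5% of all genes.

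**Figure D5:**
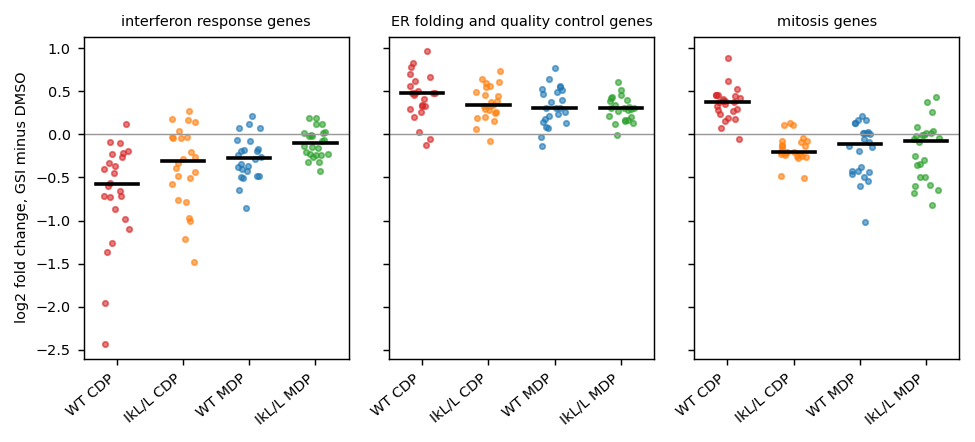
log2 fold change (GSI minus DMSO) of each measured interferon response gene, ER folding gene and mitosis gene in the 4 populations, with a bar at each median. ER folding medians lie between 0.30 and 0.48 in all 4, interferon medians between -0.58 and -0.10, and the mitosis median is 0.38 in WT CDPs and below 0 in the others.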

How the data were processed

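The authors processed the arrays (Affymetrix Mouse Gene ST, RNA amplified from 0.69 to 20 ng) with RMA in Affymetrix Expression Console 1.4.1, per the labels, and deposited log2 values, which run from 2.55 to 13.46 with array medians of 4.52 to 4.65. The annotation's genome build was not given in the sources used here. Of 28188 probe sets, 21789 carried 1 symbol, 1621 several and 4778 none. Where a symbol had several, the probe set of greatest average signal across the 16 arrays stood for it, which left 19938 genes with no filter on signal.

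All 16 arrays entered 1 model with a mean for each of the 8 groups, in limma 3.58.1 (R 4.3.3, 8 residual and 2.35 prior degrees of freedom), with eBayes and Benjamini-Hochberg adjustment over all genes. The fit was tested on simulated data. With 2 arrays against 2 an exact permutation test cannot go below p = 0.333, and none was used. The study gives 2 mice per condition without tying arrays to mice, and p-values measure only the spread between these arrays. The number of arrays limits the precision, and the log2 values carry no measure of background.

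Members and lists (31, plus 4 secretory lists added after their values were seen) were chosen with earlier results of these data known. Named genes were the called genes, then up to 15 in each direction by p among those over 1.5-fold with arrays apart and the same sign within both replicate numbers (predicted, small RNA, pseudogene, chemosensory receptor and antigen receptor segment genes aside), all γ-secretase, Notch and study-named genes, and up to 4 called or 2 lowest-p members of each other list. Other members named, such as Ifit3, Hyou1, Mpo, Elane and Cd163, were chosen after their values were seen. Alternatives were a replicate block, centring, a signal filter, all probe sets, each array left out, an intensity trend, array weights, subsets of arrays and a test against 1.5-fold. Promoter windows were those of RefSeq, GRCm38.p6.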

Additional observations from a re-analysis of the deposited data

Results flagged for a closer look

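Of the lists, 2 had a mean signal that moved in opposite directions on all arrays of WT CDPs and of IkL/L CDPs. For T and NK cell genes, the mean of GSI minus DMSO was -0.06 in WT CDPs and 0.09 in IkL/L CDPs. For erythroid and megakaryocyte genes it was 0.05 in WT CDPs and -0.06 in IkL/L CDPs. All 4 differences are under 0.1 on the log2 scale, and the difference between populations was not tested. Groups of 2 arrays were too small for a search for outlying samples within a group.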

How the results depend on the processing

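The 2 calls for GSI in WT CDPs were close to the threshold, and a missing call does not show that a gene did not differ. The count was 2 with a signal filter and with the mean of all probe sets, 1 with an intensity trend, and 0 with centred arrays, with 4 WT CDP, 8 CDP or 8 WT arrays alone, with array weights and against 1.5-fold, where 793, 543, 872, 550, 564 and 27 genes had an unadjusted p under 0.05 in limma. It ranged from 0 to 6 with 1 array left out, with Mrc1 and Hfe not among the 6 genes called without GSI array 1. A group left with 1 array was assumed to vary like the others. With the replicate block 5 genes were called (Mrc1, Hfe, Slc30a4 and Eps8 higher, Rbpms lower), and, in fits added after seeing the data, 0 with 4 WT CDP arrays and the replicate block and 7 with 8 CDP arrays and the replicate block. Replicate numbers were not shown to pair the arrays: deviations of same-numbered arrays correlated at 0.585 in WT CDPs but from -0.25 to 0.66 over 28 pairs of groups, with 20 above 0, and from 0.348 to 0.658 among the CDP groups. The block changed no other call. The difference between WT and IkL/L CDPs gave 0 calls except 1 with an intensity trend (Cyp1b1) and 0 to 6 with 1 array left out (6 without IkL/L CDP GSI replicate 1), and that between WT CDPs and WT MDPs 0 to 1 (1 without WT MDP GSI replicate 2). Of 408 genes over 1.5-fold, 108 were over 2-fold. The count was 902 within replicate number 2, 139 within both numbers as a replicate block, and 457 to 1360 with 1 array left out (1052 without vehicle array 2, 1360 without GSI array 1). Recomputed medians of the 35 lists, 1 for each list and alternative, moved by over the spread between replicates in 20 cases and by less in 294.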
